A study of Homo sapiens with 6 samples.

Results

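The genes described here are 34 genes of homologous recombination, end joining by DNA polymerase theta and the Fanconi anaemia pathway. They were taken by name from the 57773 gene IDs of an RNA-seq table. No cutoff on their values was used, but the list was chosen with earlier results of these data known. All 34 matched 1 ID each. The table holds 6 libraries from RPE1, a human epithelial line from the retinal pigment layer, immortalised with telomerase. Of these, 3 libraries are from cells kept 24 h with Nutlin-3 at 2.5 µM and 3 from cells kept 24 h with the solvent DMSO. Nutlin-3 is a small molecule that blocks the binding of MDM2 to the transcription factor p53, and the study asked which genes respond to p53. The labels give no genetic change for the line and do not say whether the replicates were separate cultures, so the p-values rest on the variation among these 6 libraries and that variation may be technical.

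Homologous recombination repairs a broken chromosome by copying the intact sister chromatid, and so works mainly in S and G2 phase. The ends are cut back to single strands, BRCA1 with BARD1 and PALB2 bring in BRCA2, and BRCA2 prepares the single strand for the search for the sister. The Fanconi proteins act where a crosslink joins both DNA strands: a core complex with the E2 enzyme UBE2T attaches ubiquitin to the FANCD2-FANCI pair, USP1 removes it, and recombination completes the repair. Many genes of this machinery are known targets of E2F factors and of the DREAM complex, a repressor that forms when p53, through p21, lowers cyclin-dependent kinase activity.

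Values are RPKM, nominally the reads of a gene per 1 M reads of the library (RPM) divided by its length in kilobases. The deposited RPKM behaved as reads divided by the whole span of the gene, introns included: of values worth up to 20 reads, 90.3% were whole reads within 0.01 of a read with that length, and 32.9% with the length of the exons. RPKM is therefore used below mainly to compare a gene between libraries. Levels of the genes described here are compared with each other on reads per kilobase of exon. The cutoff of 0.1 RPKM and the marker sums below also use RPKM, in which a long span lowers the value of a gene. Library sizes, taken as the divisors that the RPKM imply, were between 29.8 and 42.3 M. Reads recovered from the RPKM came to 40.2, 27.8 and 30.7 M in DMSO, below sizes of 42.3, 29.8 and 32.4 M. In Nutlin-3 libraries they came to 31.4, 36.0 and 30.8 M, against sizes of 31.6, 35.8 and 30.4 M. The sizes may thus not be plain read totals, and RPKM and RPM may carry a scaling that differed between groups. Its part in small changes was not tested. The treatment check was CDKN1A, which encodes p21 and is a p53 target. Its level went from 8.36 ± 0.463 to 60.5 ± 2.34 RPKM (mean ± SD with n = 3 in each group), a 7.24-fold rise (limma adjusted p = 6.60e-05). MDM2, another p53 target, rose 3.66-fold (limma adjusted p = 6.75e-05). Of 12 markers of retinal pigment epithelium, 2 (MITF and OTX2) had a mean of at least 0.1 RPKM, DCT and TTR were listed at 0 in every library and RPE65 was at most 0.00318 RPKM, while all 5 keratin, vimentin and cadherin markers used for this line passed 0.1 RPKM. Summed over 5 blood markers the level was 20.7 to 21.0 RPKM in DMSO and 24.5 to 27.2 RPKM in Nutlin-3, nearly all of it CD68, which encodes a lysosomal protein, with CD3E and HBB at 0. The 4 endothelial markers matched summed to at most 0.109 RPKM, and the 5 fibroblast markers to between 5.41 and 6.77 RPKM in DMSO and between 8.26 and 8.98 RPKM in Nutlin-3, mainly PDGFRB and COL1A1. Since these marker values depend on gene span, they do not show which cell types were present. The part of blood, endothelial or fibroblast cells in the results was not tested.

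With Nutlin-3, nearly the whole set fell. Of the 34 genes, 33 had a mean of at least 0.1 RPKM and were tested, and 32 of them fell at an adjusted p under 0.05 (limma on log2(RPKM + 0.1), Benjamini-Hochberg over 19886 genes). FANCF was the 1 that rose. Among all genes tested, 18.4% fell and 20.9% rose. In 26 of the 33 the Nutlin-3 mean was below 50% of the DMSO mean, against 3.19% of all genes. The median of the 33 was 31.9% of the DMSO level, and that of all tested genes 101%. In every one of the 33 genes that fell, FANCC included, the highest Nutlin-3 library lay below the lowest DMSO library, a pattern that 25.7% of all tested genes showed. FANCC, with at most 0.101 RPKM in any library, did not pass the filter. In bulk RNA, fewer cells in S and G2 phase and less RNA per cell cannot be told apart.

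**Figure D1:**
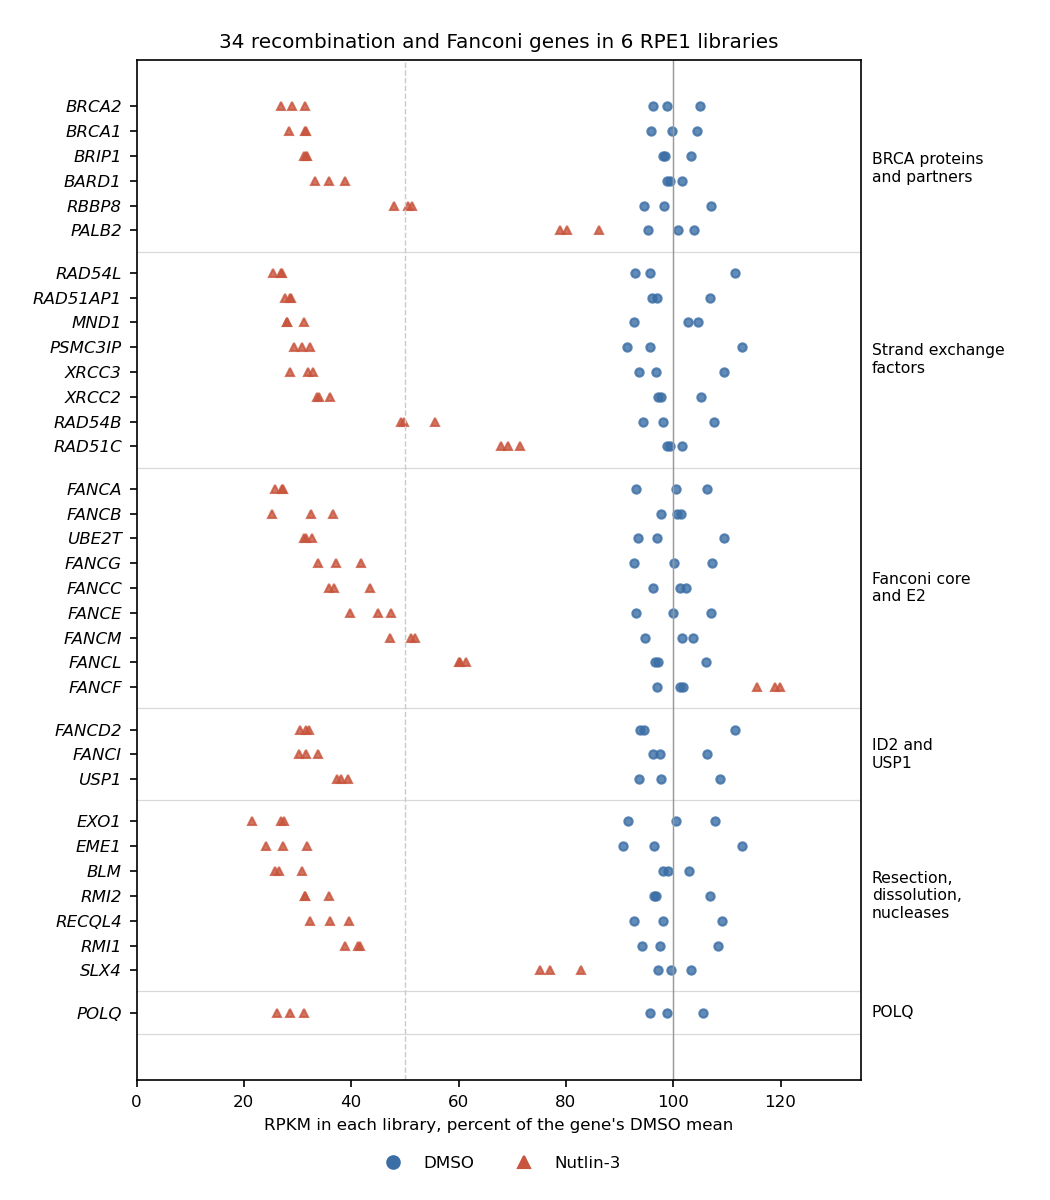
RPKM of each gene in each library as a percentage of that gene's DMSO mean, for 3 DMSO (circles) and 3 Nutlin-3 libraries (triangles), grouped by role. The triangles of 33 genes lie left of all their circles, from EXO1 at 25.3% to PALB2 at 81.8% on average, and those of FANCF lie to the right, at 118%.

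Summed over the 34 genes, the reads recovered from the RPKM came to 1332 ± 67.8 RPM in DMSO and 496 ± 11.8 RPM in Nutlin-3 libraries (n = 3), and to at least 15491 reads in every library. The highest sum was that of DMSO replicate 1, with 1411 RPM against 1300 and 1287 in the other DMSO libraries. This library was the highest of the DMSO libraries in 26 of the 34 genes, and in 41.4% of all tested genes. With this library left out the calls were again 32 lower and 1 higher. Run on the recovered reads, limma voom called 33 genes lower and 1 higher, with 23.9% of all genes lower and 25.5% higher, and its median log2 fold change was -1.63. For BRCA1, FANCB, FANCC, FANCF and RMI2 no length within 10% of the GENCODE 29 span gave whole reads. Their reads below are the smallest whole numbers in the ratio of the RPKM and could understate the true reads by a whole multiple, the same in each library.

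BRCA1 and BARD1 form a ubiquitin ligase that promotes resection and recombination at broken ends. In the order of replicates 1 to 3, BRCA1 (ENSG00000012048) measured 1.09, 0.998 and 1.04 RPKM in DMSO and 0.329, 0.295 and 0.327 RPKM in Nutlin-3 libraries. All treated libraries were close together and far below the controls, and the mean fell to 30.4% of its DMSO level (log2 fold change -1.45, SE 0.04998, limma adjusted p = 1.05e-04). BRCA2 (ENSG00000139618), which acts on the resected single strands, measured 0.375, 0.353 and 0.344 RPKM in DMSO and 0.0963, 0.103 and 0.112 RPKM in Nutlin-3 libraries, a fall to 29.1% (log2 fold change -1.17, SE 0.0592, limma adjusted p = 1.89e-04). BARD1 fell from 0.414 ± 0.00593 to 0.149 ± 0.0115 RPKM, to 36.0%. BRIP1, the helicase bound by the BRCT repeats of BRCA1, fell from 0.353 ± 0.0104 to 0.111 ± 0.00103 RPKM, to 31.5%, with Nutlin-3 libraries between 0.110 and 0.112 RPKM.

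The remaining members of the BRCA group fell less. RBBP8, which encodes the resection factor CtIP, fell from 0.274 ± 0.0175 to 0.137 ± 0.00493 RPKM, to 49.96%. PALB2 (ENSG00000083093), the bridge between BRCA1 and BRCA2, had 0.711, 0.691 and 0.652 RPKM in DMSO and 0.540, 0.590 and 0.549 RPKM in Nutlin-3 libraries. The groups lay apart but near each other, at 81.8% of the DMSO level (log2 fold change -0.25, SE 0.0466, limma adjusted p = 0.0107), which is the smallest fall of the set.

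The next group holds 8 factors of strand exchange, the step in which the single strand pairs with the sister. RAD51AP1 (ENSG00000111247), which promotes joint molecule formation, measured 1.90, 1.71 and 1.73 RPKM in DMSO and 0.508, 0.492 and 0.512 RPKM in Nutlin-3 libraries, a fall to 28.4% (log2 fold change -1.64, SE 0.0477, limma adjusted p = 9.63e-05). RAD54L (ENSG00000085999), a DNA translocase of strand exchange, measured 1.34, 1.15 and 1.12 RPKM in DMSO and 0.325, 0.306 and 0.327 RPKM in Nutlin-3 libraries. DMSO replicate 1 was the highest for both genes, and every treated library lay below every control library. RAD54L fell to 26.5% of its DMSO level (log2 fold change -1.63, SE 0.0727, limma adjusted p = 1.45e-04).

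PSMC3IP and MND1 encode the partners of 1 heterodimer, known from meiosis, that helps DNA strands pair. PSMC3IP fell from 4.35 ± 0.493 to 1.34 ± 0.0649 RPKM, to 30.8%, and MND1 from 0.277 ± 0.0178 to 0.0805 ± 0.00501 RPKM, to 29.1%. RAD54B, a relative of RAD54L, fell less, from 0.281 ± 0.0191 to 0.145 ± 0.00986 RPKM, to 51.5%. It shares 59.1% of its exon length with FSBP on the same strand. How reads shared by both genes were counted is not given in the sources used here, so these counts may not stand for RAD54B alone. FSBP fell by 0.65 on the log2 scale (limma adjusted p = 1.02e-03).

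XRCC2, XRCC3 and RAD51C encode related proteins that act early in strand exchange. XRCC2 fell from 0.705 ± 0.0314 to 0.244 ± 0.00886 RPKM, to 34.5%, and XRCC3 from 2.27 ± 0.189 to 0.709 ± 0.0513 RPKM, to 31.2%. RAD51C (ENSG00000108384), which sits in complexes with each of these proteins, had 0.535, 0.522 and 0.520 RPKM in DMSO and 0.357, 0.376 and 0.364 RPKM in Nutlin-3 libraries. It fell to 69.5% (log2 fold change -0.43, SE 0.0322, limma adjusted p = 5.46e-04), with little spread in either group. XRCC3 shares 76.7% of its exon length with KLC1, RAD54L 25.1% with LRRC41 and PSMC3IP 29.9% with MLX, each on the opposite strand. Whether counting used strand is not given in the sources used here. KLC1 and LRRC41 rose by 0.22 and 0.24 on the log2 scale (limma adjusted p = 1.77e-03 and 2.74e-03), and MLX did not pass (0.00082, adjusted p = 0.988).

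The Fanconi core complex and its E2 enzyme held the widest range of the set. FANCA (ENSG00000187741) measured 1.08, 1.03 and 0.949 RPKM in DMSO and 0.263, 0.277 and 0.278 RPKM in Nutlin-3 libraries, a fall to 26.8% (log2 fold change -1.59, SE 0.0535, limma adjusted p = 1.04e-04). FANCA shares 23.6% of its exon length with ZNF276 on the opposite strand, which did not pass (log2 fold change -0.094, limma adjusted p = 0.199). UBE2T (ENSG00000077152) measured 4.12, 3.51 and 3.65 RPKM in DMSO and 1.23, 1.17 and 1.19 RPKM in Nutlin-3 libraries, with the controls more spread than the treated libraries, and fell by 1.57 on the log2 scale (SE 0.0639, limma adjusted p = 1.30e-04). FANCG, a scaffold of the core, fell from 6.52 ± 0.479 to 2.45 ± 0.257 RPKM, to 37.6%. FANCB, the X-linked partner of the FANCL ligase, fell from 0.405 ± 0.00773 to 0.128 ± 0.0232 RPKM, to 31.5%, on 109 to 512 reads per library. FANCE, which contacts FANCD2, fell from 0.837 ± 0.0585 to 0.369 ± 0.0325 RPKM, to 44.1%.

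FANCM, the translocase that recruits the core to DNA, fell from 0.312 ± 0.0147 to 0.156 ± 0.00788 RPKM, to 50.1%. FANCL, the RING ligase itself, fell from 0.549 ± 0.0292 to 0.333 ± 0.00391 RPKM, to 60.6%, and shares 19.7% of its exon length with VRK2 on the opposite strand, which did not pass (limma adjusted p = 0.223). FANCC, which pairs with FANCE, had 0.0994, 0.0946 and 0.101 RPKM in DMSO and 0.0362, 0.0427 and 0.0352 RPKM in Nutlin-3 libraries, 38.7% of its DMSO level. It fell on the recovered reads, with 919, 616 and 713 reads in DMSO and 250, 334 and 234 in Nutlin-3 libraries (log2 fold change -1.37, limma voom adjusted p = 5.85e-11).

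FANCF (ENSG00000183161), an adaptor of the core encoded by a gene without introns, went the other way. It measured 2.36, 2.48 and 2.46 RPKM in DMSO and 2.92, 2.81 and 2.89 RPKM in Nutlin-3 libraries. Every treated library was above every control library, as in 27.6% of all tested genes. The rise was small, to 118% of the DMSO level (log2 fold change 0.23, SE 0.0304, limma adjusted p = 0.00314), and rested on 330, 244 and 264 reads in DMSO and 305, 333 and 291 in Nutlin-3 libraries. FANCF shares 11.3% of its exon length with GAS2 on the opposite strand, which had a mean of 21 reads in each group.

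The target of the core complex is the clamp of FANCD2 and FANCI. FANCD2 (ENSG00000144554) measured 0.756, 0.641 and 0.636 RPKM in DMSO and 0.206, 0.214 and 0.218 RPKM in Nutlin-3 libraries, and FANCI (ENSG00000140525) 2.08, 1.91 and 1.89 RPKM in DMSO and 0.619, 0.595 and 0.663 RPKM in Nutlin-3 libraries. DMSO replicate 1 was the highest library for both genes, and no treated library reached a control. They fell to 31.4% and 31.9% of their DMSO levels (log2 fold changes -1.31 and -1.51, limma adjusted p = 2.11e-04 and 1.17e-04), and the log2 values differ more than the percentages since the pseudocount weighs more on the lower RPKM of FANCD2. USP1 (ENSG00000162607), which removes the ubiquitin from this clamp and from PCNA, measured 6.18, 5.33 and 5.56 RPKM in DMSO and 2.13, 2.25 and 2.17 RPKM in Nutlin-3 libraries, a fall to 38.3% (log2 fold change -1.34, SE 0.0613, limma adjusted p = 1.52e-04). The E2 enzyme and the eraser of this mark, UBE2T and USP1, thus both fell, to 31.8% and 38.3%. The ligase FANCL fell less, to 60.6%.

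Among the enzymes of resection, dissolution and cleavage, EXO1 (ENSG00000174371), the exonuclease of long resection, fell furthest of the whole set in relative level. It measured 0.841, 0.714 and 0.784 RPKM in DMSO and 0.168, 0.215 and 0.210 RPKM in Nutlin-3 libraries, 25.3% of its DMSO level (log2 fold change -1.57, SE 0.0881, limma adjusted p = 2.42e-04). EME1 (ENSG00000154920), the partner of the MUS81 nuclease, measured 2.41, 2.06 and 1.94 RPKM in DMSO and 0.582, 0.514 and 0.677 RPKM in Nutlin-3 libraries. The treated libraries were spread, but all lay far below the controls (log2 fold change -1.70, SE 0.118, limma adjusted p = 4.32e-04). EME1 shares 16.4% of its exon length with LRRC59 on the opposite strand, which did not pass (log2 fold change -0.14, limma adjusted p = 0.0762).

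The BLM helicase dissolves paired recombination intermediates together with RMI1 and RMI2. BLM fell from 0.259 ± 0.00676 to 0.0718 ± 0.00717 RPKM, to 27.7%, RMI2 from 0.175 ± 0.0104 to 0.0575 ± 0.00456 RPKM, to 32.9%, and RMI1 from 1.23 ± 0.0903 to 0.497 ± 0.0178 RPKM, to 40.6%. RECQL4, another RecQ helicase, fell from 5.19 ± 0.434 to 1.87 ± 0.187 RPKM, to 36.0%. SLX4 (ENSG00000188827), the scaffold that holds structure-specific nucleases, had 0.672, 0.697 and 0.655 RPKM in DMSO and 0.520, 0.508 and 0.559 RPKM in Nutlin-3 libraries. The treated libraries were all lower, by little, at 78.4% of the DMSO level (log2 fold change -0.30, SE 0.0436, limma adjusted p = 0.00442).

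POLQ (ENSG00000051341) encodes polymerase theta, which joins resected ends through short homologies and so competes for the same substrate. It measured 0.504, 0.457 and 0.473 RPKM in DMSO and 0.137, 0.125 and 0.149 RPKM in Nutlin-3 libraries. It fell to 28.7% (log2 fold change -1.29, SE 0.0601, limma adjusted p = 1.61e-04), a percentage between those of RAD51AP1 and BRCA2.

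Because the genes fell together, their promoters were searched for letters linked to E2F and DREAM. RefSeq windows (GRCh38.p14, 250 bases before to 50 after the start) were matched for 30 of the 34 genes, all but RAD54B, RECQL4, FANCI and RMI2. The E2F letters were TTTCCCGC or TTTGGCGC or TTTCGCGC or TTTGCCGC, the CHR letters (cell cycle genes homology region, the DREAM element) TTTGAA or TTCGAA, and the NF-Y letters CCAAT, each on both strands. An E2F match stood in 6 of 30 windows, or 20%, against 3.31% of 35116 windows in the table. A CHR match stood in 4 windows, 13.3% against 16.4%, and an NF-Y match in 13 windows, 43.3% against 34.6%. Only the first window of each gene of the set was searched. The windows in the table were all counted and not limited to genes tested here, so the compared sets may be unlike in other ways. The 6 genes with E2F letters were XRCC2, MND1, FANCA, FANCC, FANCD2 and EXO1, among 24 matched genes below 50% of their DMSO level. The 6 matched genes at or above 50% (FANCM, FANCL, RAD51C, SLX4, PALB2 and FANCF) held neither E2F nor CHR letters, against 19.2% of all windows with either, a share that 6 genes are too few to be set against. A match describes letters only, and binding was not measured here.

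These E2F matches are printed as 30 bases of the gene's strand, with the matching letters in capitals, to show which variant each gene holds. FANCC held a pair.
FANCA, chr16:89816801-89816830, minus strand: actacaccgcgGCGGCAAAgccaaacgcaa
FANCC, chr9:95317863-95317892, minus strand: ccggggcttccGCGCGAAAccgggaacact
FANCC, chr9:95317737-95317766, minus strand: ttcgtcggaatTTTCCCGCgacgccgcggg
MND1, chr4:153344643-153344672, plus strand: cggcgtagtcgGCGCCAAAatcaaacgcgt
FANCD2, chr3:10026424-10026453, plus strand: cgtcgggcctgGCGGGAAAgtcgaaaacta
EXO1, chr1:241848197-241848226, plus strand: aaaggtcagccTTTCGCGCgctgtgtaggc
XRCC2, chr7:152676102-152676131, minus strand: tggcgttggtgGCGGGAAAgttgagtctct
The matches in MND1 and FANCD2 began 34 and 2 bases before the start, and those in EXO1 and XRCC2 at bases 5 and 22 after it. CHR letters stood in BRIP1, FANCC, UBE2T and POLQ. The FANCC match, on the gene's own strand 248 bases before the start, is not shown. For comparison, 1 match each of UBE2T and POLQ on the gene's own strand is shown.
UBE2T, chr1:202342072-202342101, minus strand: cgcgcgctctcaTTTGAAtgcgtgagcgtt
POLQ, chr3:121545968-121545997, minus strand: gggaggtttgagTTTGAAgactggcgggaa
The UBE2T match lay 153 bases before the start and the POLQ match 4 bases after it.

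Levels were compared between the 29 other genes, whose lengths were resolved, as RPM divided by the kilobases of exon, with exon lengths from GENCODE 29. In DMSO the highest were UBE2T at 23.5 ± 1.97, USP1 at 20.7 ± 1.61, FANCL at 18.7 ± 0.995 and FANCI at 18.5 ± 1.01 (mean ± SD, n = 3). UBE2T was above USP1 in every DMSO library. The means of FANCL and FANCI differed by less than either SD, with FANCL the higher in every DMSO library. The lowest were SLX4 at 2.39 ± 0.0750, FANCM at 2.39 ± 0.112 and BRCA2 at 2.45 ± 0.112, which lay within their spread. With Nutlin-3 the order changed. FANCL was the highest at 11.3 ± 0.133, above USP1 at 7.93 ± 0.222 and UBE2T at 7.48 ± 0.184. BRCA2 at 0.713 ± 0.0546 was the lowest, and BLM at 1.06 ± 0.106 came next. FANCM was at 1.2 ± 0.0604 and SLX4 at 1.87 ± 0.0950, with other genes between them, such as EME1 at 1.48 ± 0.206. PALB2 at 4.50 ± 0.214 stood above FANCA at 2.22 ± 0.0693, which had been higher in DMSO (8.29 ± 0.554 against 5.50 ± 0.240).

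**Figure D2:**
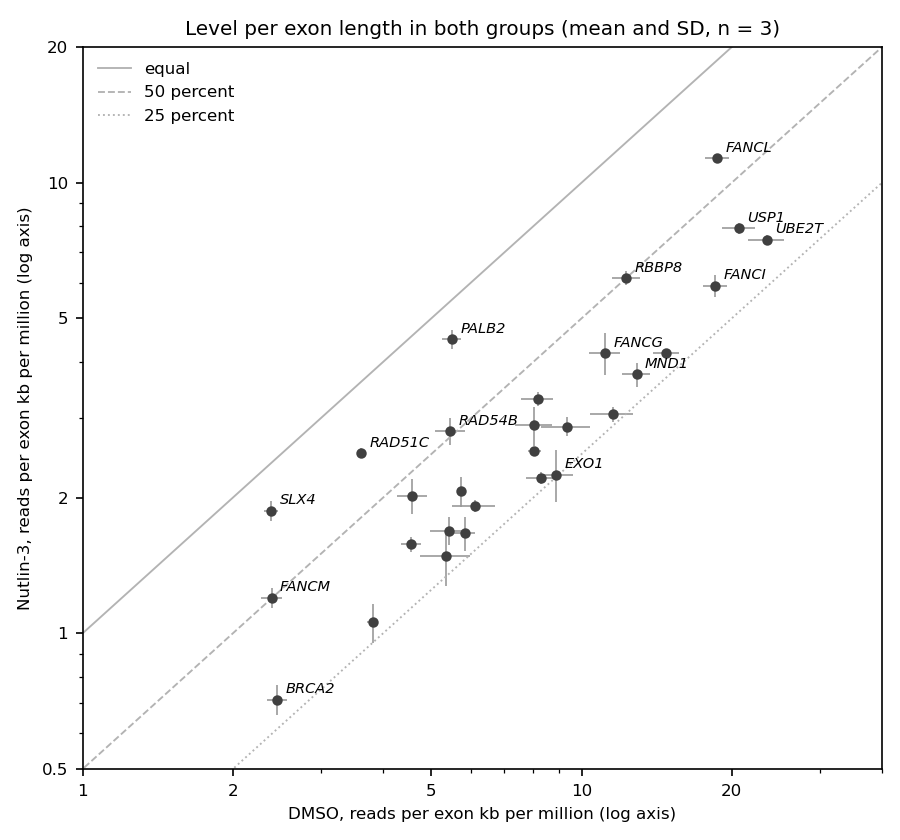
Mean RPM per kilobase of exon in DMSO (x axis) and Nutlin-3 libraries (y axis), both on log axes, with SD bars (n = 3 per group) and lines at equal level, 50% and 25%. Most of the 29 genes lie between the 50% and 25% lines, RBBP8 and FANCM lie on the 50% line, and FANCL, PALB2, SLX4, RAD51C and RAD54B lie above it.

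Partners in 1 complex or 1 step were then compared within each library, as the log2 ratio of their RPKM, in which the gene length cancels between groups. Over 7 pairs the 2-sided exact permutation test cannot go below p = 0.1 with 3 against 3 libraries, and the smallest adjusted p was 0.14. The ratio FANCD2/FANCI was -1.54 ± 0.0641 with DMSO and -1.55 ± 0.0718 with Nutlin-3, and the groups overlapped (exact p = 0.5). PSMC3IP/MND1 was 3.97 ± 0.147 with DMSO and 4.06 ± 0.0445 with Nutlin-3, also with overlap (exact p = 0.4).

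In the other 5 pairs the groups did not overlap, each with exact p = 0.1. Of all tested genes taken singly, 25.7% lay wholly lower with Nutlin-3 and 27.6% wholly higher. The share of other gene pairs without overlap was not computed. The ratio BRCA2/PALB2 was -0.94 ± 0.0263 with DMSO and -2.43 ± 0.122 with Nutlin-3, a 2.81-fold fall of the ratio. UBE2T/FANCL, the E2 and the ligase, was 2.77 ± 0.0506 with DMSO and 1.85 ± 0.0496 with Nutlin-3, a shift of 1.90 times. RAD51C/XRCC3, which form a dimer, was -2.11 ± 0.0963 with DMSO and -0.95 ± 0.139 with Nutlin-3, a shift of 2.23 times towards RAD51C. The shifts of BRCA1/BARD1 and RMI2/RMI1 were smaller, at -0.24 and -0.31 on the log2 scale, with the first gene of each pair falling further.

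**Figure D3:**
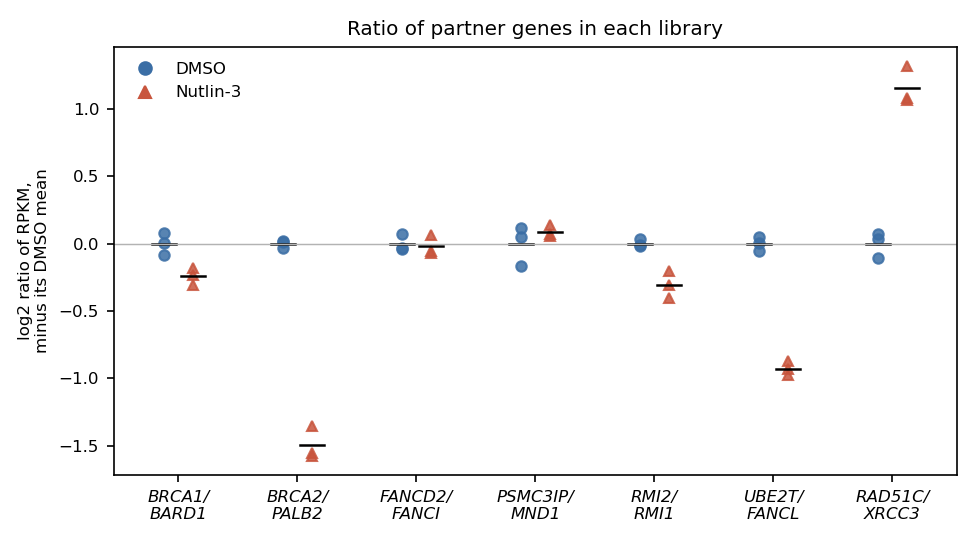
The log2 ratio of RPKM of 7 partner pairs in each library, set to 0 at its DMSO mean (y axis), for 3 DMSO libraries (circles) and 3 Nutlin-3 libraries (triangles), with group means as bars. FANCD2/FANCI and PSMC3IP/MND1 overlap, and BRCA2/PALB2 lies 1.49 lower and RAD51C/XRCC3 1.16 higher with Nutlin-3.

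The other pathway genes listed moved less evenly. Both lists were chosen with earlier results of these data known. How far the sorting of genes between them shaped this difference was not tested. Of 49 other recombination and Fanconi genes 48 matched an ID and 45 were tested. Of these, 27 fell, 2 rose and 16 did not pass, with a median of 80.4% of the DMSO level. Ranked by log2 fold change, the largest falls included MCM8, HROB, TONSL and DNA2. MCM8, a helicase of recombination, fell from 0.817 ± 0.0430 to 0.268 ± 0.0135 RPKM. HROB, which recruits it, fell from 0.572 ± 0.0276 to 0.194 ± 0.0315 RPKM. TONSL, which reads new histones at damaged forks, fell to 41.7% and the resection nuclease DNA2 to 38.7% of the DMSO level. In percent the order differs, since the pseudocount weighs on low genes: MMS22L fell to 38.4% with a log2 fold change of -0.92. The 2 that rose were FAAP20, the ubiquitin-binding subunit of the Fanconi core, to 130.4%, and EME2, the other partner of MUS81, to 128%. EME2 thus rose (log2 fold change 0.35, limma adjusted p = 8.37e-04) where EME1 fell.

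Set beside other lists, also chosen with earlier results of these data known, the 33 tested genes had a median of 31.9% of the DMSO level. The 6 genes of the MCM replication helicase all fell, with a median of 33.4%, and so did 13 mitotic kinesins, with a median of 31.8%. Classical end joining needs no sister chromatid, and its list here also held TP53BP1, RIF1, MAD2L2, SHLD1, SHLD2 and SHLD3. It had 8 of 14 tested genes lower, 2 higher and a median of 79.1%. Among all genes tested, 18.4% were lower and 20.9% higher. MAD2L2 is also counted among the other recombination and Fanconi genes. The part that a changed cell cycle distribution has in these values was not tested.

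**Figure D4:**
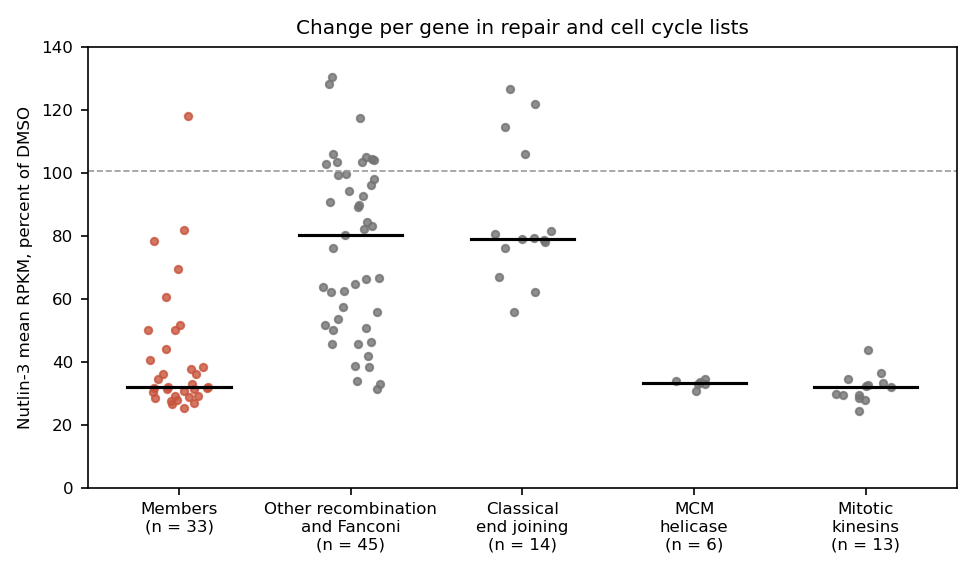
Nutlin-3 mean RPKM as a percentage of the DMSO mean (y axis) for each tested gene of 5 lists, with list medians as bars and the median of all tested genes as a dashed line. The recombination and Fanconi genes described here sit mostly between 25% and 50%, the MCM and kinesin genes lie at similar percentages, and the other 2 repair lists spread up to 130%.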

How the data were processed

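Poly(A) RNA of 6 RPE1 libraries (3 DMSO, 3 Nutlin-3) was sequenced from stranded libraries, per the labels' protocols. The deposited values are RPKM made by the authors, 1 column per library. CASAVA 1.8.2, TopHat2, edgeR and hg19 stand in the submitters' processing notes without roles, and for the counter and annotation the sources used here name none. Groups and replicate numbers came from the labels.

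A gene entered the test if its 6 libraries averaged 0.1 RPKM or more. limma 3.58.1 (R 4.3.3) fitted the group alone to log2(RPKM + 0.1), with a mean-variance trend, and p-values were adjusted by Benjamini-Hochberg. The fit was tested on simulated data. With this pseudocount, log2 fold changes of low genes come out too small. Percentages of the DMSO level are ratios of mean RPKM. Reads were recovered as RPKM times gene span (GENCODE 29), whole within 0.02 of a read, for 27830 IDs. For 4157 IDs a span within 10% was used and for 4201 the smallest whole numbers. limma voom was run on genes averaging 10 reads or more.

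Values per library were given for the 2 largest changes and the smallest of each role group and for genes that rose. Of the other pathway genes, the 5 largest falls and 5 largest rises past the threshold were to be named, and 1 of them is not reported here. The members and lists were chosen with earlier results of these data known. The replicate numbers were checked for pairing, and pseudocounts, filters, scalings, a replicate block and leaving out each library were tried as alternatives. Overlaps came from GENCODE 29, another build than hg19.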

Additional observations from a re-analysis of the deposited data

How the results depend on the processing

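Under 15 alternative settings, all 42 genes tested by name kept their direction and their side of the threshold wherever they were tested (594 values, counting each gene under each setting that tested it). The number of members that fell was 32, and 33 without a filter and on recovered reads. It was 16 with a minimum mean of 0.5 RPKM, with or without a pseudocount of 0.5, because only 17 members passed that filter. The median log2 fold change of the members, -1.17, was -1.58 with a pseudocount of 0.01, -0.62 with 0.5, -1.45 with a minimum of 0.5 RPKM and -1.63 on recovered reads, since the pseudocount shrinks low values. It lay between -1.22 and -1.15 when 1 library was left out. Other pathway genes that rose numbered 4 under quantile normalization, against 2. The difference in the FANCD2/FANCI ratio was -0.018 and ranged from -0.059 to 0.019 with 1 library left out, turning positive without DMSO replicate 1 or without Nutlin-3 replicate 3.

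Same-numbered libraries of the groups did not deviate together (correlations of -0.034, -0.023 and -0.013), so the values gave no sign of pairing. Whether same-numbered libraries were handled together is not given in the sources used here. With a replicate block, 5520 genes passed instead of 7803, and again 32 members fell and 1 rose. Among the members whose lengths were resolved, FANCE had the fewest reads in the DMSO libraries and EME1 the fewest summed over the Nutlin-3 libraries.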
